A study of Mus musculus with 6 samples.

Results

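Erbb4 is one of 4 receptors of the ERBB family, and its transcript was followed here together with the other 3 receptors (Egfr, Erbb2 and Erbb3) and the 4 neuregulin genes (Nrg1, Nrg2, Nrg3 and Nrg4). These 8 genes were taken by name from a table of 32201 genes. Erbb4 itself was picked for its level: on the log2 scale the baicalin and saline libraries were parted by more than 0.5, so its difference between the groups is a description and was not tested. The other 7 entered as family members, whatever their values.

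The libraries came from the hippocampus of male C57BL/6N mice, an inbred strain, aged 8 weeks. All mice in both groups had been through chronic unpredictable mild stress, a rotating schedule of mild stressors such as restraint, cage tilt and disturbed light cycles. One group (3 libraries) received baicalin, a plant flavonoid, at 20 mg/kg, and the other (3 libraries) received saline. Mice without stress are mentioned in the labels and were not analysed here, and the labels do not say whether every library came from its own mouse. The tests below therefore rest on library-to-library spread, which may be technical.

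ERBB receptors are tyrosine kinases that pair on binding a ligand of the epidermal growth factor (EGF) family. Neuregulins are the ligands of Erbb3 and Erbb4, Erbb2 binds no ligand and acts as a partner, and Erbb3 has little kinase activity of its own. In the hippocampus Erbb4 is known chiefly from GABA-releasing interneurons, parvalbumin cells among them, where it acts in the formation and strength of synapses. Erbb3 belongs mainly to the oligodendrocyte lineage, and Egfr to glia and neural stem cells.

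The deposited value of Erbb4 (ENSMUSG00000062209, chromosome 1, 68032186 to 69108059, minus strand, mm10) sums 4 annotated transcripts and so does not separate its isoforms. The isoforms differ in short exons, shown here because each changes what the receptor can do. A 75-base exon, in Erbb4-201 and Erbb4-202, gives the form that is cut from the cell surface, and a 45-base exon takes its place in Erbb4-205, which resists that cut. A 48-base exon of the cytoplasmic tail is in Erbb4-201 and absent from Erbb4-202. Its capitals mark the 4 codons of the docking stretch for phosphoinositide 3-kinase (PI3K), running from a tyrosine codon to a methionine codon in the exon's reading frame. The sequences are those of GENCODE mouse release 21, 5′ to 3′ on the minus strand.
Erbb4-201 exon 16 (chr1:68290243-68290317): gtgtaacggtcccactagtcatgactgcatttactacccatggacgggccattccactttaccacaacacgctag
Erbb4-205 exon 16 (chr1:68290439-68290483): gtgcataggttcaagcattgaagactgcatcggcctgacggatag
Erbb4-201 exon 26 (chr1:68043908-68043955): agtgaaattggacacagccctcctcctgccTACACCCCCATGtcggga
The fourth transcript, Erbb4-203, is a retained-intron form of 744 bases. Dividing each count by its FPKM (fragments per kilobase, scaled to library size, so a level per length) gave an implied Erbb4 length of 12359 to 12656 bases in the 6 libraries, against 12355 bases for all its exons joined, so the same length was used throughout and says nothing of the isoform mix.

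Erbb4 was uniformly high with baicalin and uneven with saline. Its level was 2.44, 2.40 and 2.31 FPKM in baicalin libraries 1, 2 and 3, and 0.107, 1.41 and 0.124 FPKM in saline libraries 1, 2 and 3. The groups did not overlap, but saline library 2 lay much nearer to the baicalin libraries than to the other saline libraries. Saline library 2 stood at 59% of the baicalin mean, against 4.49% in saline library 1 and 5.21% in saline library 3.

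The counts behind these levels were 2212, 2200 and 1996 with baicalin and 102, 1316 and 120 with saline. Exact Poisson 95% intervals, which cover counting error alone, ran from 83.2 to 123.8 for saline library 1, from 99.5 to 143.5 for saline library 3 and from 1245.9 to 1389.1 for saline library 2. These intervals do not overlap between saline library 2 and the other saline libraries. How reads were assigned to transcripts before deposit was not tested, for Erbb4 or for any other gene. Many genes below also have steps between libraries of a group, such as Grb2, Paqr8, Gclm, Dhdds, Crk, Dlg2, Spry1, Pacs2, Nek7, Rora and Pvalb. The values of Erbb4 and of such genes are those of the deposited table and may not be expression alone. Group means were 2.38 ± 0.0671 FPKM for baicalin and 0.546 ± 0.745 FPKM for saline (SD over 3 libraries), and the saline SD exceeded the saline mean.

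The fitted difference in Erbb4, baicalin minus saline, was 2.12 on the log2 scale (4.36-fold), given as a description. Leaving out saline library 2 gave 4.35, leaving out saline library 1 gave 1.64, leaving out saline library 3 gave 1.65, and the difference was between 2.10 and 2.14 without any one baicalin library. The gap that chose the gene, from the lowest baicalin to the highest saline library, was 0.73 log2. The same gap exceeded 0.5 in 25 of 13153 genes (0.19%) averaging 1 FPKM or more, and Erbb4 ranked 12 by its size. The genes just inside were Xdh (0.53), Gm7832 (-0.52) and Cox6a2 (0.5), and those just outside were Mir7093 (0.46), Mir6982 (-0.45) and Gm45591 (-0.45).

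**Figure D1:**
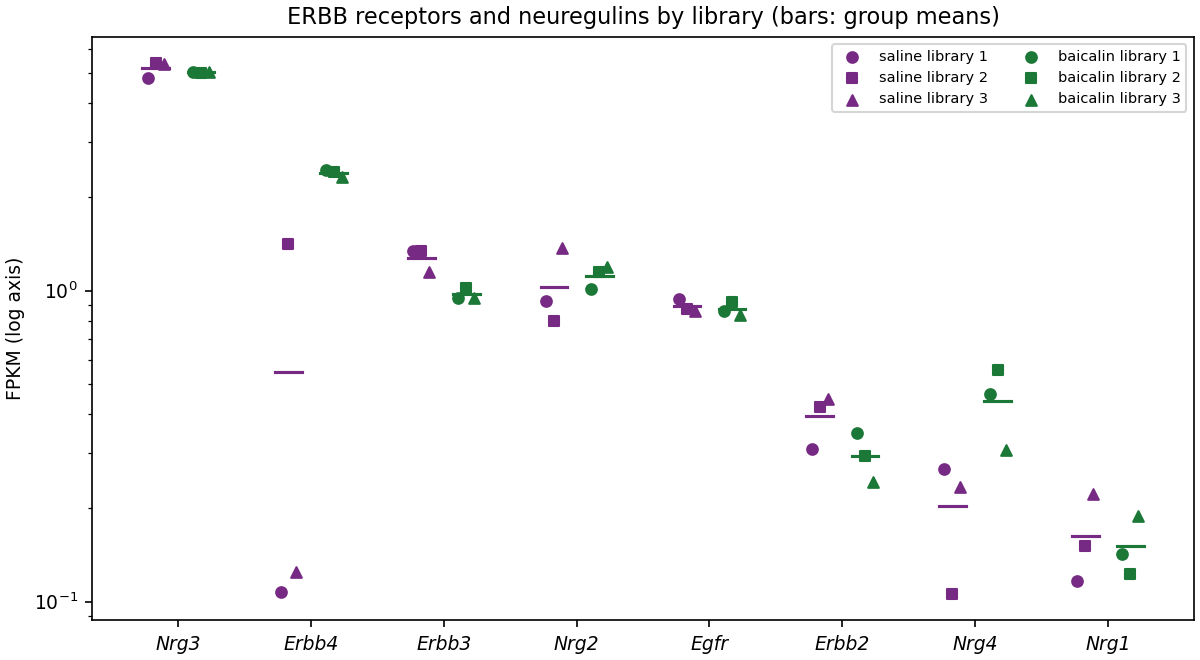
FPKM of the 8 genes in each of the 6 libraries on a log axis, ordered by mean level; points are libraries and bars are group means. Erbb4 sits at 2.31 to 2.44 FPKM in the baicalin libraries and spans 0.107 to 1.41 FPKM in the saline libraries, while Nrg3 and Egfr show narrow spreads in both groups.

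Steps of that size within a group were rare. Erbb4 spanned 3.67 log2 over the saline libraries and 0.06 over the baicalin libraries, against medians of 0.18 and 0.20 over all genes tested. A span at least as wide was found for 31 of 13153 genes within saline, Erbb4 included, and for 40 genes within baicalin. Gene length is given beside the spread because Erbb4 is very long. Of the 33 genes tested that cover at least 1000 kb, Erbb4 (1076 kb) had the widest saline span, and Nrg3, at 1104 kb, spanned 0.17. Genes covering at least 1000 kb had a median log2 difference of -0.08 (8 positive, Erbb4 among them, and 25 negative). The part of gene length in the Erbb4 values was not tested. Inside the Erbb4 interval the table lists another gene, Gm37061, with 4 counts in baicalin library 2 and 0 in the other libraries, so few counts were listed to it.

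**Figure D2:**
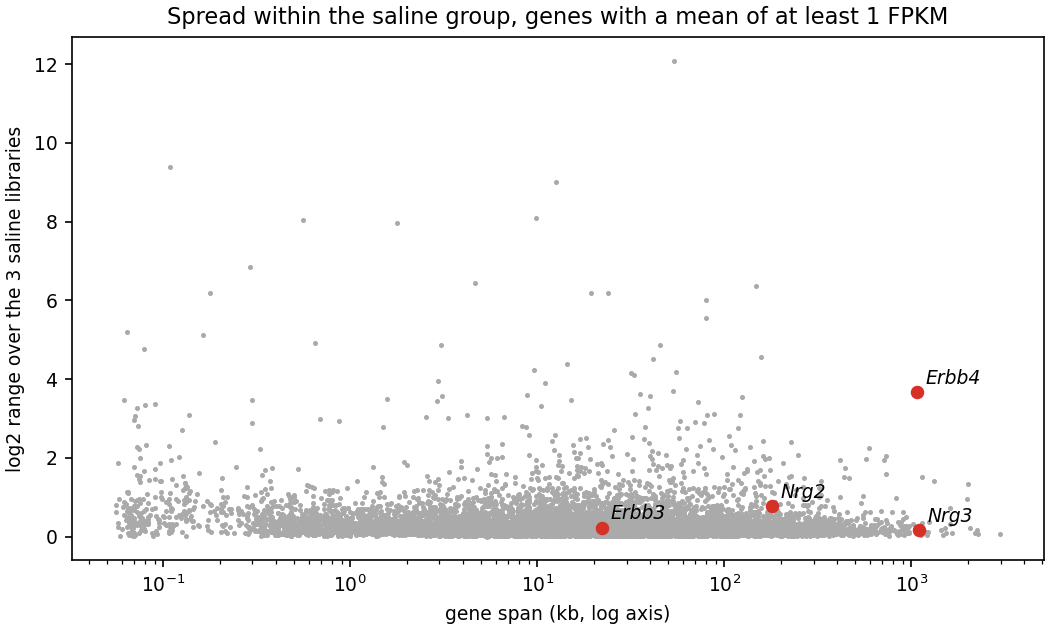
Log2 range over the 3 saline libraries against gene span in kb (log axis) for the 13153 genes averaging 1 FPKM or more; grey points are genes, red points the 4 family members among them. Erbb4 lies at 3.67, far above Nrg3 (0.17), which has nearly the same span.

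Among the other receptors none passed the adjusted threshold of 0.05, and Erbb3 was the one whose groups did not overlap. Genes averaging 1 FPKM or more were compared with the quasi-likelihood F-test of edgeR, and p was adjusted by Benjamini and Hochberg's method over all of them. There 6 of 13153 genes (0.0456%) passed, 0.0152% higher and 0.0304% lower with baicalin. Of the 8 family genes, 4 reached that mean. Erbb4 reached it through the baicalin group and Erbb3 through the saline group, while Nrg2 and Nrg3 reached it in both. The other 4 (Erbb2, Egfr, Nrg1 and Nrg4) were tested in the same model with a lower minimum of 0.1 FPKM, where 6 of 20463 genes (0.0293%) passed. Across both fits 0 of the 7 genes passed, 2 (Erbb3 and Nrg4) had an unadjusted p under 0.05, and DESeq2 and limma also called 0 of the 7. At the higher minimum DESeq2 called 218 of all genes (1.66%) and limma 8 (0.0608%). An unadjusted p under 0.05 was found for 11.8% of all genes at the higher minimum and 9.38% at the lower. Of the 7 genes 2 (again Erbb3 and Nrg4) had groups that did not overlap, as did 19.4% of all genes at the higher minimum (9.93% higher and 9.52% lower with baicalin) and 16.8% at the lower (8.76% higher and 8.08% lower).

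Erbb3 (ENSMUSG00000018166, chromosome 10, 128567523 to 128589652) pairs with Erbb2 and carries docking sites for PI3K. It measured 0.949, 1.02 and 0.945 FPKM with baicalin and 1.34, 1.34 and 1.15 FPKM with saline. Every baicalin library was below every saline library, a pattern that 9.52% of all genes tested showed in this direction. The log2 difference was -0.39 ± 0.10 (SE) with adjusted p = 0.323 in edgeR, which does not pass.

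Levels of the oligodendrocyte lineage, where Erbb3 is known to be expressed, are given beside it because bulk tissue cannot tell fewer cells from less RNA per cell. The 13 oligodendrocyte markers had a median log2 difference of 0.04, with a summed level of 459 to 576 FPKM with baicalin and 478 to 550 with saline. The myelin gene Mobp was at 0.10, and Ugt8a, an enzyme of myelin lipid synthesis, was at -0.40 (adjusted p = 0.324 in edgeR). The 7 precursor markers had a median of -0.07, with Sox10 at -0.29 and Olig2 at 0.14. Their part in the Erbb3 difference was not tested.

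Egfr (ENSMUSG00000020122, chromosome 11, 16752203 to 16918158), the receptor of EGF and transforming growth factor alpha, was nearly level. Its values were 0.861, 0.918 and 0.833 FPKM with baicalin and 0.938, 0.869 and 0.861 FPKM with saline, and the groups overlapped. The log2 difference was -0.03 ± 0.08 (SE; adjusted p = 0.936 in edgeR), so the error leaves room for small changes in either direction.

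Erbb2 (ENSMUSG00000062312, chromosome 11, 98412470 to 98437716), the partner receptor with no ligand of its own, was scarce. It measured 0.348, 0.293 and 0.243 FPKM with baicalin and 0.310, 0.422 and 0.449 FPKM with saline. Saline library 1 lay inside the baicalin range. The log2 difference was -0.41 ± 0.22 (SE; adjusted p = 0.601 in edgeR), from counts of 90 to 182 per library.

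The makeup of the receptor family varied with Erbb4. Erbb4 held 51.8 to 53.3% of the summed receptor FPKM in the baicalin libraries, 34.8% in saline library 2, and 4.0% and 4.8% in saline libraries 1 and 3. Without Erbb4 the receptors summed to 2.02 to 2.23 FPKM with baicalin and 2.46 to 2.63 FPKM with saline. Erbb3 was the most abundant receptor in saline libraries 1 and 3, and Erbb4 in the other 4 libraries.

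Among the 4 neuregulins, Nrg3 had the highest level in every library. Nrg3 (ENSMUSG00000041014, chromosome 14, 38368952 to 39473088), a brain-enriched neuregulin that binds Erbb4, measured 5.05, 5.02 and 5.03 FPKM with baicalin and 4.82, 5.38 and 5.34 FPKM with saline. It made up 73.4 to 83.6% of summed neuregulin FPKM in the 6 libraries. The baicalin values lay inside the saline range, and the log2 difference was -0.04 ± 0.06 (SE; adjusted p = 0.848 in edgeR). In saline libraries 1 and 3, where Erbb4 was low, Nrg3 stood at 4.82 and 5.34 FPKM, on either side of the baicalin values.

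Nrg2 (ENSMUSG00000060275, chromosome 18, 36017707 to 36197380), which also binds Erbb3 and Erbb4, measured 1.01, 1.15 and 1.19 FPKM with baicalin and 0.923, 0.796 and 1.37 FPKM with saline. The saline libraries enclosed the baicalin libraries. The log2 difference was 0.12 ± 0.22 (SE; adjusted p = 0.847 in edgeR), and it was 0.38 without saline library 3 and -0.03 without saline library 2.

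Nrg4, a ligand of Erbb4 best known as a hormone from fat tissue, had the largest difference among the 7 tested genes. Nrg4 (ENSMUSG00000032311, chromosome 9, 55220222 to 55326844) measured 0.465, 0.556 and 0.307 FPKM with baicalin and 0.267, 0.106 and 0.234 FPKM with saline. The groups did not overlap, as for 8.76% of genes in this direction at the lower minimum, but baicalin library 3 and saline library 1 lay close together. The log2 difference was 1.12 ± 0.38 (SE) with adjusted p = 0.485 in edgeR, which does not pass. Counts were 132 to 252 with baicalin and 50 to 124 with saline. The 3′ end of Nrg4 overlaps that of Fbxo22 on the opposite strand (1889 to 2307 counts), and no source used here says that the counting was strand-specific, so reads of these genes may not be separated.

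Nrg1 (ENSMUSG00000062991, chromosome 8, 31814551 to 32009451), the best studied neuregulin of synapses and myelin, was the scarcest of the 8. The deposited interval ends at 32009451, while GENCODE extends the gene to 32884029, the side where this minus-strand gene starts. The length implied by its counts and FPKM was 10402 to 10723 bases, against 10351 for all its GENCODE exons joined. Whether reads of that side were counted was not tested. It measured 0.142, 0.123 and 0.189 FPKM with baicalin and 0.116, 0.151 and 0.221 FPKM with saline, with overlapping groups and 91 to 179 counts per library. The log2 difference was -0.08 ± 0.30 (SE; adjusted p = 0.95 in edgeR), an error too wide to show a moderate change in either direction.

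In order of mean level over the 6 libraries the genes ran Nrg3, Erbb4, Erbb3, Nrg2, Egfr, Erbb2, Nrg4 and Nrg1. Nrg3 was above Erbb4, and Egfr above Erbb2, in 6 of 6 libraries with no overlap of their ranges. Erbb4 exceeded Erbb3 in 4 of 6 libraries, Erbb3 exceeded Nrg2 in 2 of 6, Nrg2 exceeded Egfr in 4 of 6, Erbb2 exceeded Nrg4 in 3 of 6 and Nrg4 exceeded Nrg1 in 5 of 6, and over all 6 libraries the ranges of each of these pairs overlapped. Within the baicalin group Erbb4 over Erbb3, Nrg2 over Egfr and Nrg4 over Nrg1 held in 3 of 3 libraries with no overlap. Within the saline group Erbb2 lay above Nrg4 in 3 of 3 libraries with no overlap, and with baicalin in 0 of 3.

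Genes whose levels ran most like Erbb4 were found by Pearson correlation of log2 CPM (counts scaled to library size) over the 6 libraries among all genes tested, which picks high values by construction. The 5 closest were Paqr8 (r = 0.993), a membrane progestin receptor gene, Gclm (0.993), a subunit of glutathione synthesis, Rab4b (0.992), a GTPase of endosomal recycling, Dhdds (0.99), an enzyme of dolichol synthesis, and Grb2 (0.989). Grb2 encodes the adaptor that links ERBB receptors to Ras, and it also stood in the list of receptor adaptors. Grb2 measured 52.1, 50.1 and 49.3 FPKM with baicalin and 22.6, 50.4 and 22 FPKM with saline, so saline library 2 lay within the baicalin range.

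The other 4 had the same form, with saline libraries 1 and 3 below the other 4 libraries. Paqr8 was at 28.1 to 28.9 FPKM with baicalin and 6.49, 26.9 and 6.40 FPKM with saline. Gclm was at 5.64 to 6.00 FPKM with baicalin and 1.44, 5.18 and 1.26 FPKM with saline. Their log2 ranges over the 6 libraries were 2.20 for Paqr8, 2.28 for Gclm and 0.45 for Rab4b, all smaller than that of Erbb4. None of the 5 passed the adjusted threshold (adjusted p from 0.417 to 0.484 in edgeR).

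With each group's mean removed, the 5 closest were Pacs2, Mir1897, Paqr8, Vps52 and Dhdds (r from 0.997 to 0.999), so Paqr8 and Dhdds appeared in both rankings. Pacs2, a sorting protein gene, was at 6.69 to 7.20 FPKM with baicalin and 7, 16.5 and 7.33 FPKM with saline. It was thus highest in saline library 2, whereas Erbb4 was lowest in saline libraries 1 and 3. Over the 6 libraries the correlation with Erbb4 was 0.31 for Nrg4, 0.11 for Nrg3 and -0.62 for Erbb3, given as descriptions of 6 points.

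**Figure D3:**
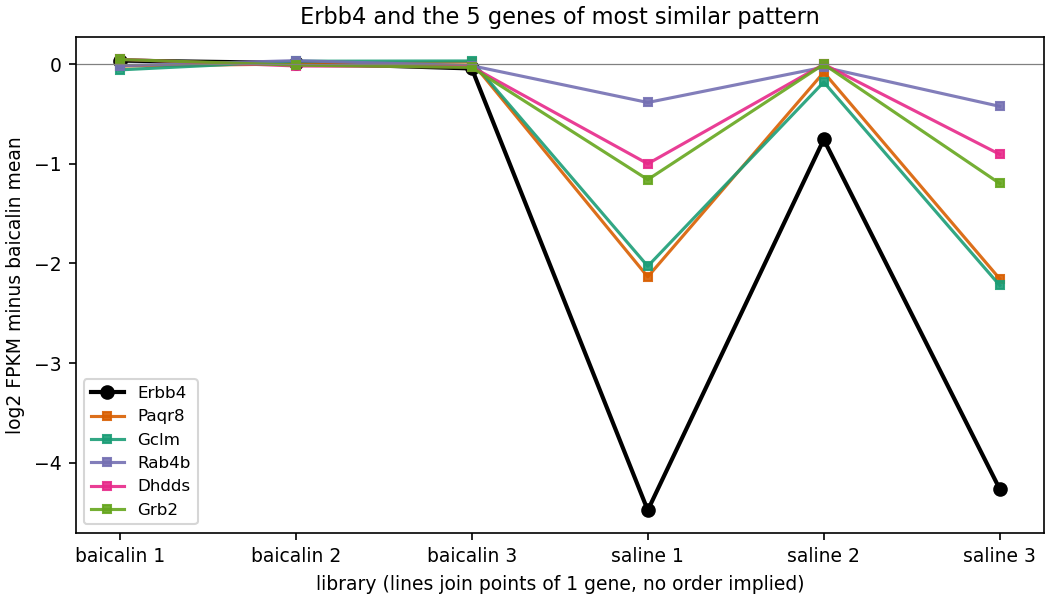
Log2 FPKM of Erbb4 and the 5 genes of most similar pattern in each library, relative to each gene's baicalin mean; lines join the points of one gene and imply no order. All 6 genes are lowest in saline libraries 1 and 3, and Erbb4 has the deepest drop (0.107 and 0.124 FPKM).

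Genes that act with these receptors were followed in 6 lists holding 94 genes, of which 83 had a mean of at least 1 FPKM. In edgeR 0 of the 83 passed in either direction, and 18 (4 higher, 14 lower) had an unadjusted p under 0.05, or 21.7% against 11.8% of all genes tested. DESeq2 called 3 of the 83, against 1.66% of all genes: Cblb, a ubiquitin ligase that removes receptors (log2 difference 0.28), Spred1, an inhibitor of the Ras pathway (-0.22), and Wwp1, a ubiquitin ligase that binds Erbb4 (-0.39). Limma called 0. The 11.8% covers both directions together, so the 4 higher and 14 lower have no background by direction. The median log2 difference of the 83 was -0.05, against -0.001 for all genes tested. That background is not matched for gene length, and medians varied with length. They were 0.06 for genes tested under 10 kb and -0.08 for those covering at least 1000 kb. The part of gene length in the values of these lists, and of the marker lists below, was not tested.

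Other ligands of the EGF family were few in this tissue. Tgfa and Hbegf, ligands of Egfr and in the case of Hbegf also of Erbb4, were the 2 that reached 1 FPKM. Tgfa averaged 6.00 ± 0.23 FPKM with baicalin and 5.72 ± 0.347 with saline, and Hbegf 3.46 ± 0.187 and 3.18 ± 0.291 (SD over 3 libraries). Egf itself averaged 0.145 FPKM over the 6 libraries.

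The proteases that release neuregulins and cut Erbb4 gave 11 measured genes with a median log2 difference of 0.05 and a range of -0.21 to 0.27. Adam10, a sheddase, was at -0.17 ± 0.05 and Adam17, which sheds Erbb4, at 0.15 ± 0.28 (SE). Bace1, which processes Nrg1, was at 0.22 ± 0.34. Of the gamma-secretase genes, whose complex then frees the receptor tail, Ncstn was at 0.12 ± 0.05 and Psenen at 0.27 ± 0.17. None passed (adjusted p of these 5 from 0.36 to 0.851 in edgeR).

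Adaptors and kinases below the receptors gave 35 measured genes, with a median of -0.04, 13 positive and 22 negative. The abundant kinase gene Map2k1 was close between the groups, at 99.9 ± 2.14 FPKM with baicalin and 101 ± 2.98 FPKM with saline (SD over 3 libraries). Crk, an adaptor, measured 6.79, 7.01 and 6.69 FPKM with baicalin and 15.6, 16.9 and 8.12 FPKM with saline. Crk thus showed a step within the saline group too, but with saline library 3 near the baicalin libraries, and its log2 difference of -0.98 ± 0.26 (SE) did not pass (adjusted p = 0.324 in edgeR; 0.0119 without saline library 3). Grb2 had 0.68 ± 0.32 (adjusted p = 0.454 in edgeR; 0.00335 without saline library 2). Crk and Grb2 passed only where the saline library nearest to the baicalin libraries was left out. Leaving out that library moves the groups apart by itself, so these 2 p-values are no support for a difference. With all libraries in, the groups overlapped for Grb2 but not for Crk. Sos2, which loads Ras, was at -0.30 ± 0.08 (adjusted p = 0.324 in edgeR).

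Partners of the freed receptor tail and brakes on the pathway did not pass either. Tab2 and Ncor1, which carry the Erbb4 tail as a repressor complex, were at 0.08 ± 0.15 and -0.08 ± 0.05, and Stat5b was at 0.25 ± 0.15 (SE). Among 16 measured negative regulators the median was -0.07. Spred1 averaged 15.5 ± 0.612 FPKM with baicalin and 18.2 ± 0.141 with saline (SD over 3 libraries), with adjusted p = 0.227 in edgeR, the smallest of the 6 lists. Spred2 was at -0.20 ± 0.05 and Errfi1, which blocks the ERBB kinase domain, at 0.01 ± 0.08. Spry1, singled out after its values were seen, had 599 to 693 counts in 5 libraries and 6 in saline library 3, so saline library 3 stood apart for this gene.

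Of 12 measured synaptic scaffold and surface partner genes, 10 had negative differences, against 6598 of all 13153 genes tested, and the median was -0.10. Sign varied with gene length, however: 25 of the 33 genes covering at least 1000 kb were negative, against 1463 of 4272 under 10 kb. Dlg2 (1973 kb), Magi2 (1478 kb) and Cntnap2 (2245 kb) of this list are among those 33. The part of gene length in the values of this list was not tested. Groups did not overlap, with baicalin lower, for 6 of the 12, against 9.52% of all genes. Dlg4, which encodes PSD-95, the scaffold that holds Erbb4 at synapses, was at -0.02 ± 0.04 (SE). Dlg2, its paralog, measured 8.98, 10.4 and 8.58 FPKM with baicalin and 19.5, 20.8 and 10.9 FPKM with saline. As for Crk, saline library 3 lay near the baicalin libraries, and Dlg2 did not pass at -0.87 ± 0.24 (adjusted p = 0.325 in edgeR; 0.0307 without saline library 3). Dlg2 passed only with that nearest library left out, which is no support for a difference.

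**Figure D4:**
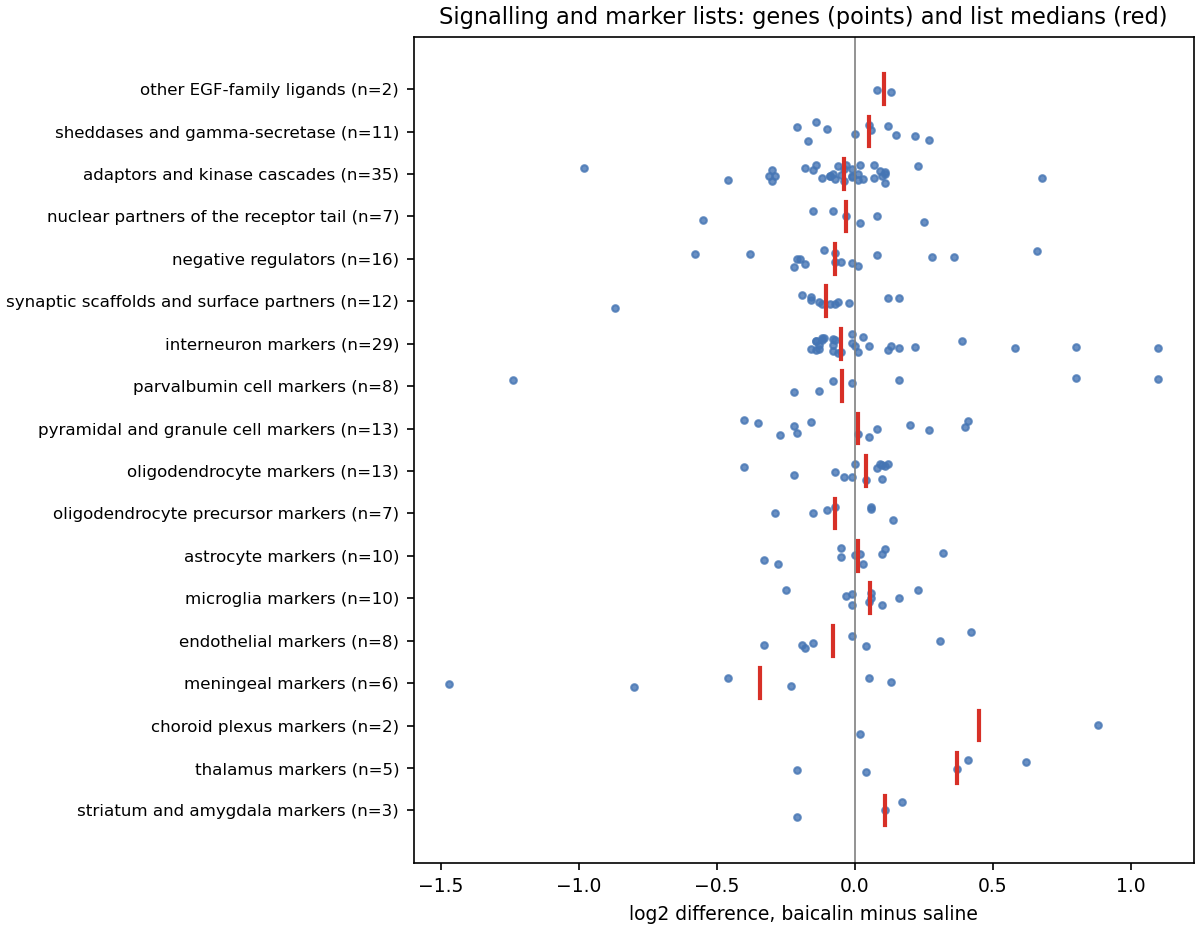
Log2 difference (baicalin minus saline) of every measured gene in the 6 signalling and 12 marker lists; blue points are genes and red bars list medians. Most medians lie near 0, and the farthest are choroid plexus (0.45, 2 genes), thalamus (0.37, 5 genes) and meninges (-0.34, 6 genes).

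Markers of interneurons, the cells best known to carry Erbb4, are given beside its values. Of 32 interneuron markers 29 were measured, with a median of -0.05 and 0 past the threshold in edgeR. Their mean relative to all libraries was 0.00, 0.06 and 0.04 in the baicalin libraries and -0.03, 0.01 and -0.08 in the saline libraries, where Erbb4 was at -2.86, 0.81 and -2.66. Gad1, the main GABA-synthesizing enzyme, measured 40.4, 40.3 and 38.3 FPKM with baicalin and 38.6, 39.5 and 40.6 FPKM with saline. Its groups overlapped. Dlx1, a transcription factor of the interneuron lineage, measured 4.39, 5.09 and 5.12 FPKM with baicalin and 3.38, 3.98 and 3.86 FPKM with saline. The neuropeptide gene Npy measured 53.8, 56.8 and 55.8 FPKM with baicalin and 52.1, 50.7 and 49.9 FPKM with saline. Both were lower in every saline library than in any baicalin library, and neither passed (adjusted p = 0.322 and 0.43 in edgeR). Cnr1 (-0.16) and Kcnc2 (-0.13) were parted the other way. Of the 29 measured markers, 11 had positive and 18 negative differences. Groups did not overlap for 4 with baicalin higher and 2 with baicalin lower, against 9.93% and 9.52% of all genes tested. Sst, which encodes somatostatin, measured 191, 195 and 192 FPKM with baicalin and 216, 217 and 176 FPKM with saline, so saline library 3 was the lowest and the other saline libraries the highest. The part of interneuron number or RNA in the Erbb4 values was not tested.

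Parvalbumin-cell genes varied in their own way. Pvalb, the calcium-binding protein of these cells, measured 32.7, 66.8 and 62.2 FPKM with baicalin and 29.6, 35.5 and 28.2 FPKM with saline, with baicalin library 1 inside the saline range. Its log2 difference was 0.80 ± 0.26 (SE; adjusted p = 0.371 in edgeR, and 0.0455 without baicalin library 1). Pvalb passed only with that overlapping library left out, which is no support for a difference. Cox6a2, a respiratory subunit enriched in these cells, measured 4, 8.03 and 4.98 FPKM with baicalin and 2.39, 2.72 and 2.82 FPKM with saline (log2 difference 1.10; adjusted p = 0.322 in edgeR, and 0.0197 in DESeq2). The potassium channel genes Kcnc1 and Kcnc2 were at -0.01 and -0.13. The 8 genes of this list had a median of -0.04, with 3 positive and 5 negative. The widest difference was that of Nek7, at -1.24 ± 0.61 (SE; adjusted p = 0.472 in edgeR). Nek7 stood at 5.83 FPKM in saline library 3 and at 1.04 to 1.33 FPKM in the other libraries.

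Over the 12 marker lists 0 of 108 measured genes passed in edgeR, and 16 (14.8%, against 11.8% of all genes) had an unadjusted p under 0.05. DESeq2 called 3 of the 108 (Cox6a2, Dlx1 and Ugt8a), against 1.66% of all genes, and limma called 0. The hippocampal pyramidal and granule markers were all measured, with summed levels of 432 to 462 FPKM with baicalin and 478 to 508 with saline. Much of these sums came from Slc17a7 (means of 136 FPKM with baicalin and 152 with saline) and Neurod6 (127 and 147). The list median was 0.01, with 7 positive and 6 negative differences, among them Dsp at 0.41 and Wfs1 at -0.40. Markers of neighbouring tissue varied between libraries: meningeal genes summed to 11.0 to 12.4 FPKM with baicalin and 9.46 to 25.7 with saline, choroid plexus genes to 19.9 to 65.6 and 11.5 to 38.9. Thalamic genes summed to 12.7 to 14.1 FPKM with baicalin and 9.62 to 13.1 with saline. These sums cover every listed gene, whereas the means that follow cover only genes averaging 1 FPKM or more. Such genes were 6 meningeal, 2 choroid plexus (Ttr and Kl) and 5 thalamic genes. Relative to all libraries, the mean log2 level in saline libraries 1, 2 and 3 was -0.23, -0.54 and 1.11 for meningeal genes. It was -0.65, -0.52 and 0.46 for choroid plexus genes and -0.51, 0.30 and -0.07 for thalamic genes. The thalamic mean thus had the same order within saline as Erbb4, with library 2 highest and library 1 lowest, unlike the meningeal and choroid plexus means. The synaptic scaffold list had that order too, with small steps (0.05, 0.08 and 0.06 in saline libraries 1, 2 and 3). Oligodendrocyte markers were also highest in saline library 2 (0.15, against -0.07 in saline libraries 1 and 3). Among measured thalamic genes, Slc17a6 and Plekhg1 followed the order, while Ramp3, Prkcd and Rora did not. Plekhg1, however, was high in saline library 3 (2.36 FPKM), where Erbb4 was low. Rora was low in saline libraries 1 and 3 and high in library 2, as Erbb4 was, but lowest in library 3. Rora, a nuclear receptor gene of the thalamic list, measured 1.76, 1.85 and 0.432 FPKM with baicalin and 0.507, 1.71 and 0.41 FPKM with saline, so it was also low in baicalin library 3, where Erbb4 was high. Their part in the Erbb4 values was not tested.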

How the data were processed

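RNA sequencing counts and levels of hippocampus were read from 1 deposited table of whole-number counts (unnormalized, per the file headers) and FPKM values, which the authors scaled to length and library. The submitters' processing notes name build mm10 and, with no roles or options, HISAT2, StringTie, limma, DESeq2 and bcl2fastq 2.0. Strand setting and annotation release are not given in these sources. The deposited FPKM was compared with counts divided by the joined exon length of GENCODE mouse release 21. The match was within 1% for 98.3 to 98.4% of multi-transcript genes with high counts (7638 to 8030 genes per library). Some family genes were farther off: Nrg2 implied 3092 to 3105 bases, against 3139. Another 12 columns matched no sample and were not used. Totals were 61303274 to 67957752 counts, and mitochondrial genes took 7.18 to 8.69%. The deposited intervals of Nrg1 and Nrg2 differ from GENCODE's; those of the other 6 genes do not.

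Counts were TMM-scaled and tested in edgeR 4.0.16 (R 4.3.3) with a treatment term; limma 3.58.1 and DESeq2 1.42.0 were alternatives, with other scalings, minimum levels and single libraries left out. The procedure was tested on simulated data. The 8 genes and the lists were chosen with earlier results of these data known. Named genes were the 8 members, per list the 3 highest by FPKM and the 2 smallest p, the genes around the 0.5 gap and the 5 closest to Erbb4 by each correlation; others named were chosen after their values were seen.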

Additional observations from a re-analysis of the deposited data

How the results depend on the processing

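The number of genes passing over the whole table was 6 in edgeR, 218 in DESeq2 and between 2 and 39 with 1 library left out. With a replicate block it was 0 in edgeR, with 1120 genes at an unadjusted p under 0.05. The shared numbers are not known to pair the samples: same-numbered libraries correlated at 0.12, 0.08 and 0.01 after group means were removed, and baicalin library 3 correlated best with saline library 2. The Erbb4 difference was 3.18 with the replicate block, 1.23 on the log2(FPKM + 1) scale, 2.59 on the log2(FPKM + 0.1) scale and 1.64 to 4.35 with 1 library left out. A minimum of 5 FPKM leaves Erbb4 out. The cause of these shifts was not tested. None of the other 7 members passed under any of the alternatives run. Differences near 0 changed sign: Egfr was 0.045 with the length trend removed and -0.055 to 0.012 with 1 library left out, Nrg1 -0.28 to 0.20 and Nrg2 -0.032 to 0.38. Counts of list genes, an alternative added after seeing the data, were 3 signalling genes in DESeq2 and 0 to 2 with 1 library left out, and 3 marker genes in DESeq2 and 0 to 1 with 1 library left out. Depth limits Nrg1, Nrg4 and Erbb2, with 50 to 252 counts per library.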

Other observations

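Several of the longest genes also spread unevenly over the saline libraries, though less than Erbb4. Kcnip4, which encodes a potassium channel-interacting protein, spanned 1.51 log2 within saline, Lrrc4c, a synaptic adhesion gene, 1.41 and Macrod2 1.33, against a median of 0.17 for the 33 genes tested that cover at least 1000 kb. Their log2 differences, baicalin minus saline, were -0.28, -0.08 and 0.32. These 3 genes were picked after their values were seen. The median saline span was 0.18 over all genes tested and 0.23 for genes under 10 kb. Medians do not show how often wide spans occur, and the part of gene length in these spans was not tested.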
